A study of Mus musculus with 4 samples.

Results

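Expression of 10 subunits of the ionotropic glutamate receptors was examined in single fetal cortical cells. The subunits were chosen by name, and all 10 were among the 16600 genes measured. They were the AMPA receptor subunits *Gria1*, *Gria2*, *Gria3* and *Gria4*, the NMDA receptor subunits *Grin1*, *Grin2b* and *Grin3a*, and the kainate receptor subunits *Grik2*, *Grik3* and *Grik5*. Single-cell (sc) RNA-Seq libraries were made from CD24+ CD45- cells sorted from the cortex of E18.5 fetuses on a C57BL/6J background, 2 of them *Setd5*+/+ (libraries WT3 and WT6) and 2 *Setd5*+/- (libraries Het5 and Het9). The study took CD24 as a marker of neurons and CD45 as a marker of the blood lineage. Cells with immune or erythroid markers were present among the sequenced cells, as described below. The *Setd5*+/- animals came from the *Setd5*GFP line, used as a heterozygous knockout, and the labels name no treatment. Age, sort and strain were shared by all 4 libraries. The study used 2 fetuses per genotype, as many as there are libraries, although no label ties a library to a fetus. Between genotypes, p-values measure the spread between libraries of the same genotype.

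Ionotropic glutamate receptors are ion channels built of several subunits that open when glutamate binds, and they carry most fast excitatory signals in the brain. AMPA receptors pass the rapid current, and *Gria2* encodes the subunit that, in its RNA-edited form, keeps calcium out of the channel. NMDA receptors need the obligatory subunit encoded by *Grin1*, and *Grin2b* encodes the glutamate-binding partner that prevails before birth. Kainate receptors combine subunits such as *Grik2* or *Grik3*, which form channels by themselves, with *Grik5*, which needs a partner.

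The libraries held 1445 to 1954 cells and 8205330 to 11742956 UMIs (unique molecular identifiers, one per captured transcript), with medians of 5398 to 5997 UMIs per cell. A level is given here as the mean counts per 10000 UMIs of the cells of a library. Only the 3′ end of a transcript is counted, and levels are not divided by transcript length, so levels of different subunits describe captured molecules. *Setd5* itself was at 1.18 in WT3 and 1.07 in WT6, against 0.540 in Het5 and 0.586 in Het9. Sex and genotype cannot be told apart in these libraries, since *Xist*, the RNA that coats the inactive X chromosome, was at 20.6 and 21.5 in WT3 and WT6 and at 0.152 and 0.310 in Het5 and Het9. In each library 66 to 71 cells had a barcode that also occurred in another library, and 130 of the 131 melanocyte cells and 96 of the 128 immune cells described below were among them.

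Each cell was put into 1 gate by the UMIs of marker genes, and no subunit served as a marker. The gates of the pallial (excitatory) line were cycling pallial cells (n = 328), intermediate progenitors with at least 2 UMIs of *Eomes* and *Neurog2* together (n = 1417), deep-layer excitatory neurons with *Bcl11b* or *Fezf2* (n = 1361) and other excitatory neurons (n = 496). The gates of the subpallial (GABA) line were cycling subpallial cells (n = 847), *Lhx6* interneurons (n = 197), *Htr3a*/*Adarb2* interneurons (n = 94), striatal neurons with *Ebf1* (n = 70) and other subpallial cells (n = 656). Radial glia (n = 166), *Olig*-positive glial progenitors (n = 65), cycling cells of neither line (n = 305), Cajal-Retzius cells (n = 44), erythroid (n = 34), immune (n = 128), melanocyte (n = 131) and vascular or mesenchymal cells (n = 17) made up the rest, with 206 cells unassigned. Markers that had not been used for gating were checked. The summed level of *Slc17a6* and *Slc17a7*, the vesicular glutamate transporters, was 1.01 in intermediate progenitors, 0.705 in deep-layer and 0.612 in other excitatory neurons but 0.00916 in *Lhx6* interneurons. *Insm1* and *Tac2*, taken to check the intermediate progenitors, did not set that gate apart, with summed levels of 2.00 there, 2.17 in cycling pallial cells, 1.89 in cycling subpallial cells and 1.88 in other excitatory neurons. The summed level of *Slc32a1*, *Erbb4*, *Nxph1* and *Maf* was 6.41 in *Lhx6* interneurons, 1.61 in other subpallial cells and 0.0431 in deep-layer neurons. *Slc32a1*, the vesicular GABA transporter, alone was at 1.08 in *Lhx6* interneurons and 0.768 in other subpallial cells (means over cells), so the other 3 genes made most of that gap. All other levels of a gate are means over the 4 libraries, each weighted alike.

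Over all cells, *Gria2* supplied most of the molecules of the list, with 14390 UMIs or 80.2% of the UMIs of the 10 subunits. *Grik5* followed with 1221 UMIs and *Grin2b* with 632. *Grik2* gave 566 UMIs, *Gria3* 337, *Grik3* 313, *Gria1* 242 and *Gria4* 127. *Grin1* and *Grin3a* had 58 UMIs each. At least 1 UMI of *Gria2* was seen in 56.4% of the 6562 cells, against 16.4% for *Grik5* and less than that for each of the other 8. For those 8 subunits a cell without a UMI says little at this depth.

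On the mouse genome (GRCm38, GENCODE M21), *Gria2* spans chr3:80681450-80802835 on the minus strand, *Gria1* chr11:57011387-57330244 on the plus strand, *Gria3* chrX:41400854-41678601 on the plus strand and *Gria4* chr9:4417896-4796234 on the minus strand. *Grin1* spans chr2:25291181-25319187, *Grin2b* chr6:135713233-136173511 and *Grin3a* chr4:49661611-49845744, all on the minus strand. *Grik2* spans chr10:49094833-49788766 and *Grik5* chr7:25009849-25072346 on the minus strand, and *Grik3* spans chr4:125490700-125714173 on the plus strand. Of the annotated genes that overlap a subunit, only the sense intronic transcript *Gm26543* inside *Grik2* was measured, at a level of 0.0140, and its reads cannot be told apart from intronic reads of *Grik2*.

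RefSeq promoter entries on GRCm38.p6 were matched for 6 of the 10 subunits. Shown are those of *Gria2* (highest in excitatory neurons), *Grik3* (highest in other subpallial cells) and *Grik5* (present in both lines), picked as examples after their levels were seen. The 250 bases before the RefSeq start are written 5′ to 3′ on the strand of the gene, at chr3:80802836-80803085 (minus strand) for *Gria2*, chr4:125490446-125490695 (plus strand) for *Grik3* and chr7:25072370-25072619 (minus strand) for *Grik5*. Capitals mark GGGCGG and its reverse complement CCGCCC, the core of the GC box.
Gria2: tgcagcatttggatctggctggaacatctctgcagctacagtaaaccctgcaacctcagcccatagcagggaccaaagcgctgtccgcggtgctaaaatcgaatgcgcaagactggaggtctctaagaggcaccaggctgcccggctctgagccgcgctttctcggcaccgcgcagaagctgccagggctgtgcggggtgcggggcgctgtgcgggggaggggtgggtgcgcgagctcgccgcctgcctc
Grik3: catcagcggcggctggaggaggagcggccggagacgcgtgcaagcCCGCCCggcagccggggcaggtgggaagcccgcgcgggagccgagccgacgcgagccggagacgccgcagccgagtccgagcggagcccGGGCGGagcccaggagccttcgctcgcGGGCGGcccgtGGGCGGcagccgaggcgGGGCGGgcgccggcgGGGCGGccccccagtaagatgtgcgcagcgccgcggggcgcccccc
Grik5: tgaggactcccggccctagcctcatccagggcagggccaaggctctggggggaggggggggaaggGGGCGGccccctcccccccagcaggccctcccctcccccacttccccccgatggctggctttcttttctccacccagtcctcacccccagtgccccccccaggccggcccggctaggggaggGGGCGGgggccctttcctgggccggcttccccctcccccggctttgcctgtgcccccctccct
The *Grik3* window held 6 GC boxes and 42 CpG dinucleotides, against a median of 6 CpG over the 32851 windows of the same length. The *Grik5* window held 2 GC boxes with 8 CpG, and the *Gria2* window held 0 GC boxes with 19 CpG. A GC box was present in 32.7% of all windows. The E-box CAGATG (or CATCTG), which the proneural factors of the *Neurog* and *Neurod* families bind, was in none of the 6 matched windows and in 14.4% of all windows. The cyclic AMP response element TGACGTCA was likewise in none of the 6, and in 1.55% of all windows.

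*Gria2* set the excitatory neurons apart from every other gate. In deep-layer excitatory neurons its level was 10.9 in WT3, 9.45 in WT6, 10.2 in Het5 and 10.5 in Het9, and in other excitatory neurons it was 10.2, 11.0, 10.6 and 10.8 in the same order. The libraries of these 2 gates overlapped. Among the gates of the fits, intermediate progenitors followed with 2.52 in WT3, 2.02 in WT6, 2.37 in Het5 and 2.68 in Het9. Cycling pallial cells held 2.33, 2.68, 1.92 and 1.68 in that order, which overlapped with the intermediate progenitors. On average over 4 libraries, levels then ran through other subpallial cells (1.36 ± 0.398, SD, n = 4), cycling cells of neither line (1.36 ± 0.475), *Lhx6* interneurons (1.17 ± 0.243), radial glia (1.03 ± 0.423), immune cells (0.739 ± 0.466) and cycling subpallial cells (0.634 ± 0.202), and each of these neighbors overlapped with the next. Of the GABA neurons too few for the fits, striatal neurons were at 2.90 in WT3, 2.70 in WT6, 2.98 in Het5 and 4.01 in Het9. *Htr3a*/*Adarb2* interneurons averaged 2.37. In melanocyte cells *Gria2* was at 0 in every library.

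**Figure D1:**
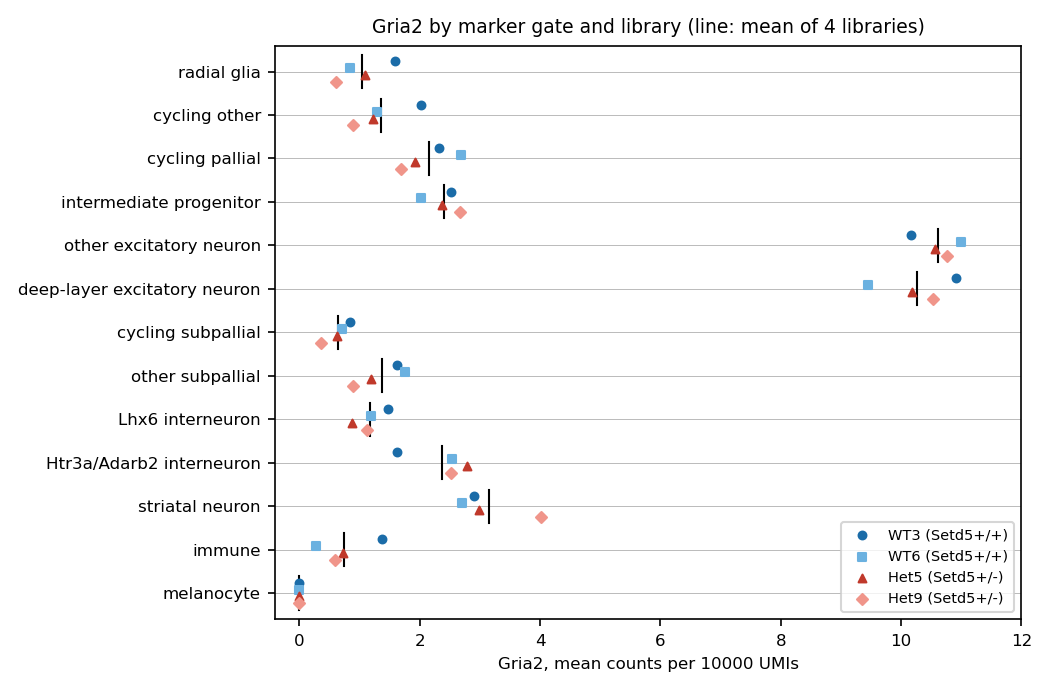
Level of *Gria2* (mean counts per 10000 UMIs, linear axis) in 13 marker gates. Points are the 4 libraries (blue, *Setd5*+/+; red, *Setd5*+/-) and black lines their means, and both excitatory gates lie between 9.45 and 11.0 while no other gate shown goes above 4.01.

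Gates were compared with limma on log2(level + 0.1), with the library as a block, for the 11 gates that had at least 20 cells in every library. In that fit p-values measure the spread left after gate and library are fitted. This spread is shared over the 11 gates, so it is not the spread between libraries. A gene was called at an adjusted p under 0.05 over the 8448 genes that passed a filter on low values, and 4 subunits passed it (*Gria2*, *Grin2b*, *Grik5* and *Grik2*). The immune and melanocyte gates entered this fit and its filter, although most of their barcodes recur, so their 4 profiles are not independent. Without cells with a recurring barcode, 5 subunits passed the filter. Between *Lhx6* interneurons and other subpallial cells 15.3% of genes were then called, against 8.05% with them. *Gria2* was 3.05 higher on the log2 scale in deep-layer excitatory neurons than in *Lhx6* interneurons (SE 0.22, 8.28-fold on that scale, adjusted p = 6.49e-16 by limma, higher in 4 of 4 libraries), in a comparison that called 16.1% of all genes. It rose by 1.21 from radial glia to intermediate progenitors (SE 0.22, adjusted p = 1.72e-05, limma), where 27.4% of genes were called. It rose by a further 2.11 from intermediate progenitors to other excitatory neurons (SE 0.22, adjusted p = 2.01e-10, limma), where 12.1% of genes were called, and both steps were seen in 4 of 4 libraries. Deep-layer and other excitatory neurons differed by -0.05 (SE 0.22, adjusted p = 1, limma), in a comparison that called 0.0592% of genes.

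Within the dividing cells, *Gria2* was 1.64 higher in cycling pallial than in cycling subpallial cells (SE 0.22, adjusted p = 7.6e-08, limma, 4 of 4 libraries), and 13.1% of genes were called there. When Leiden clusters replaced the gates, this difference was 0.49 and was no longer called (adjusted p = 0.432, limma). Each cluster stood for its most common gate, which made up 73.7% of the cells of the cycling pallial cluster. Between *Lhx6* interneurons and other subpallial cells *Gria2* differed by -0.18 (SE 0.22, adjusted p = 0.72, limma), where 8.05% of genes were called. With Leiden clusters that difference was -1.08 (adjusted p = 0.0153, limma). The *Lhx6* cluster was 62.2% *Lhx6* interneurons, and the clusters of other subpallial cells were 45.0% to 66.1% that gate. Striatal neurons and *Htr3a*/*Adarb2* interneurons had no cluster of their own, so these clusters do not match the gates.

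Cells were also thinned to 3000 UMIs, which left 6036 of them, to compare shares of cells at 1 depth. A *Gria2* UMI was then found in 85.6% of deep-layer and 82.6% of other excitatory neurons, against 38.9% of intermediate progenitors, 29.7% of cycling pallial cells, 22.1% of radial glia and 21.7% of *Lhx6* interneurons. Without thinning the share was 95.3% in deep-layer neurons, whose median depth was 5509 UMIs against 3783 in *Lhx6* interneurons. Among cells that should lack the receptor, *Gria2* was found in 0 of 131 melanocyte cells at a median depth of 5363 UMIs. Of these, 130 had a recurring barcode, 125 of them one found in all 4 libraries, so they are not 131 independent cells and no upper limit is given. It was found in 2 of the 96 immune cells whose barcode recurred and in 12 of the other 32, and 19 of these 32 cells also carried 2 or more pallial or subpallial markers. In the erythroid gate, 57 of its 64 *Gria2* UMIs were in the 21 of 34 cells that carried such markers.

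The other AMPA receptor subunits were far lower than *Gria2*. On average over the libraries, and among the gates of the fits, *Gria1* and *Gria4* were highest in *Lhx6* interneurons. *Gria3* was highest in the excitatory neurons among these gates. *Gria1*, the subunit best known from activity-dependent insertion at synapses, was at 0.431 in WT3, 0.651 in WT6, 0.214 in Het5 and 0.590 in Het9 in *Lhx6* interneurons. These levels rest on 29 UMIs in 14 of the 197 cells, and in WT6 on 16 UMIs in 5 cells. Among the gates of the fits, other subpallial cells came next at 0.177, 0.204, 0.208 and 0.0737, all below the *Lhx6* libraries, as was true of 2.45% of all genes without a filter. With UMIs summed over cells the gates overlapped, at 0.154 in *Lhx6* interneurons of Het5 and 0.178 in other subpallial cells of WT6. The share of cells with a *Gria1* UMI was 7.11% in *Lhx6* interneurons and 5.03% in other subpallial cells. Striatal neurons, too few for the fits, averaged 0.298 (0.0580 to 0.743, from 4 UMIs) and overlapped with both. Deep-layer neurons (0.101) and other excitatory neurons (0.0778) followed, and their libraries overlapped with other subpallial cells. *Gria4*, a subunit of fast channels in many interneurons, was at 0.300 in WT3, 0.334 in WT6, 0.0968 in Het5 and 0.814 in Het9 in *Lhx6* interneurons. It averaged 0.0667 in other subpallial cells and 0.0274 in deep-layer neurons, and the *Lhx6* libraries overlapped with other subpallial cells because of Het5. *Htr3a*/*Adarb2* interneurons (0.165, from 0 to 0.469) and striatal neurons (0.137, from 0 to 0.291), with 6 and 2 *Gria4* UMIs, overlapped with the *Lhx6* libraries too. The *Gria3* level in deep-layer neurons was 0.219 in WT3, 0.245 in WT6, 0.319 in Het5 and 0.239 in Het9. Other excitatory neurons were at 0.225 ± 0.0321 (SD, n = 4), and all other gates of the fits at 0.0426 or less. Cajal-Retzius cells, too few for the fits, overlapped with the excitatory neurons, at 0.545, 0.126, 0.190 and 0 in the same order (6 UMIs in 44 cells). Striatal neurons were at 0.281 in WT6, from 2 UMIs in 1 cell.

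These 3 subunits and *Grik3*, *Grin1* and *Grin3a* did not pass the filter on low values. In the alternative fit without the filter (16552 genes, 10.5% called between deep-layer neurons and *Lhx6* interneurons), *Gria3* was 1.58 higher in deep-layer neurons (adjusted p = 5.84e-07, limma). *Gria1* was 1.43 lower there, a log2 difference of -1.43 (adjusted p = 1.16e-06, limma), and *Gria4* differed by -1.72 (adjusted p = 2.03e-06, limma). Against other subpallial cells, *Lhx6* interneurons had 1.07 more *Gria1* (adjusted p = 0.000527, limma) and 1.39 more *Gria4* (adjusted p = 0.000281, limma) on the log2 scale, where 4.82% of genes were called. *Gria3* rose by 1.30 from intermediate progenitors to other excitatory neurons (adjusted p = 2.86e-05, limma), where 7.26% were called. Each of these differences had the same direction in 4 of 4 libraries. The pseudocount of 0.1 is close to or above several of these levels, so the log2 differences understate the change.

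The makeup of the AMPA family followed from these levels. In deep-layer neurons *Gria2* made up 95.5% to 96.9% of the AMPA subunit UMIs of a library, or 7266 of 7559 UMIs. Intermediate progenitors averaged 97.3% and other subpallial cells 85.3%. In *Lhx6* interneurons the share was 70.3% in WT3, 56.7% in WT6, 76.2% in Het5 and 47.6% in Het9, which lay below every library of the deep-layer neurons. Over the 4 libraries, 86 of the 139 AMPA UMIs of *Lhx6* interneurons were *Gria2* (61.9%, exact binomial 95% interval 53.3 to 70.0%, which covers counting error only). *Gria1* supplied 29 of these UMIs, *Gria4* 22 and *Gria3* 2. Of the other GABA neurons, *Htr3a*/*Adarb2* interneurons had *Gria2* at 90 of 100 AMPA UMIs and striatal neurons at 83 of 91. By library this share ran from 73.3% to 100% in *Htr3a*/*Adarb2* interneurons, which overlapped with the *Lhx6* libraries. In striatal neurons it ran from 77.8% to 93.8%. The *Gria4* share ran from 0% to 20% in *Htr3a*/*Adarb2* interneurons and from 9.52% to 33.3% in *Lhx6* interneurons, which also overlapped. These differences were not tested.

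**Figure D2:**
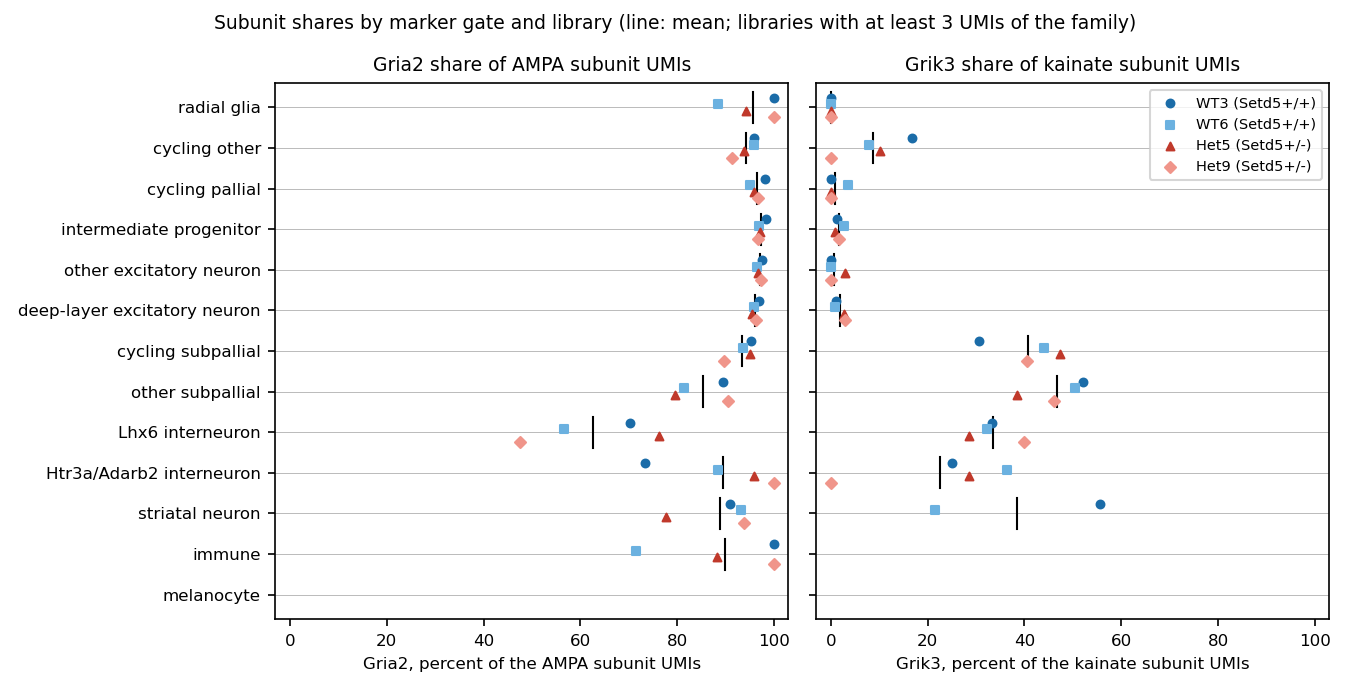
Share of *Gria2* in the AMPA subunit UMIs (left) and of *Grik3* in the kainate subunit UMIs (right), in percent, by marker gate. Points are libraries with at least 3 UMIs of the family (blue, *Setd5*+/+; red, *Setd5*+/-) and black lines their means, which for *Gria2* are 96.1% in deep-layer neurons and 62.7% in *Lhx6* interneurons, and for *Grik3* 1.83% in deep-layer neurons and 46.8% in other subpallial cells.

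Among the NMDA receptor subunits, *Grin2b* was present in neurons of both lines. Its level in deep-layer neurons was 0.346 in WT3, 0.319 in WT6, 0.262 in Het5 and 0.459 in Het9. In *Lhx6* interneurons it was 0.146, 0.535, 0.142 and 0.492 in the same order, a spread that enclosed the deep-layer values. The difference between these gates was 0.19 on the log2 scale (SE 0.29, adjusted p = 0.772, limma). With Leiden clusters in place of the gates it was 1.04 and was called (adjusted p = 0.00373, limma). The same was true from radial glia to intermediate progenitors, where the difference was -0.39 with gates (adjusted p = 0.374, limma) and -1.25 with clusters (adjusted p = 0.000239, limma). The cluster that stood for radial glia was only 37.5% radial glia. Between *Lhx6* interneurons and other subpallial cells *Grin2b* turned from 0.36 with gates (adjusted p = 0.557, limma) to -0.83 with clusters (adjusted p = 0.0347, limma), so its order among these cells depends on how they are delimited. Other excitatory neurons averaged 0.219, other subpallial cells 0.217, radial glia 0.147 and intermediate progenitors 0.0794. From intermediate progenitors to other excitatory neurons the difference was 0.80 (SE 0.29, adjusted p = 0.0665, limma) and was positive in 4 of 4 libraries. It was called when cells with a recurring barcode were left out (adjusted p = 0.0408, limma, 19% of all genes called) and when only both gates entered the fit (adjusted p = 0.000122, 35.9% of all genes called), and under the other settings its adjusted p ran from 0.0531 to 0.321.

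*Grin1* was scarce everywhere, although every NMDA receptor needs it. Of its 58 UMIs, 21 were in the 1361 deep-layer neurons (level 0.0310), 7 in cycling pallial cells and 0 in radial glia. The 70 striatal neurons held 3 *Grin1* UMIs, for levels of 0.255 in WT3, 0.331 in Het5 and 0 in WT6 and Het9. *Grin3a*, whose product lowers the calcium flow of NMDA receptors, had 33 of its 58 UMIs in cycling subpallial cells, at 0.0829 in WT3, 0.0418 in WT6, 0.0560 in Het5 and 0.0435 in Het9. It had 0 UMIs in the 1361 deep-layer neurons, which allows a level of up to 0.00381 and up to 0.220% of cells with a UMI, and 0 in the 496 other excitatory neurons. Without the filter, *Grin3a* differed by -0.60 between cycling pallial and cycling subpallial cells (adjusted p = 0.00518, limma, lower in 4 of 4 libraries), where 7.58% of genes were called. Of the NMDA UMIs of these 3 subunits, *Grin2b* made up 91.5% in deep-layer neurons and 56.7% in cycling subpallial cells, where *Grin3a* made up 41.2%.

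**Figure D3:**
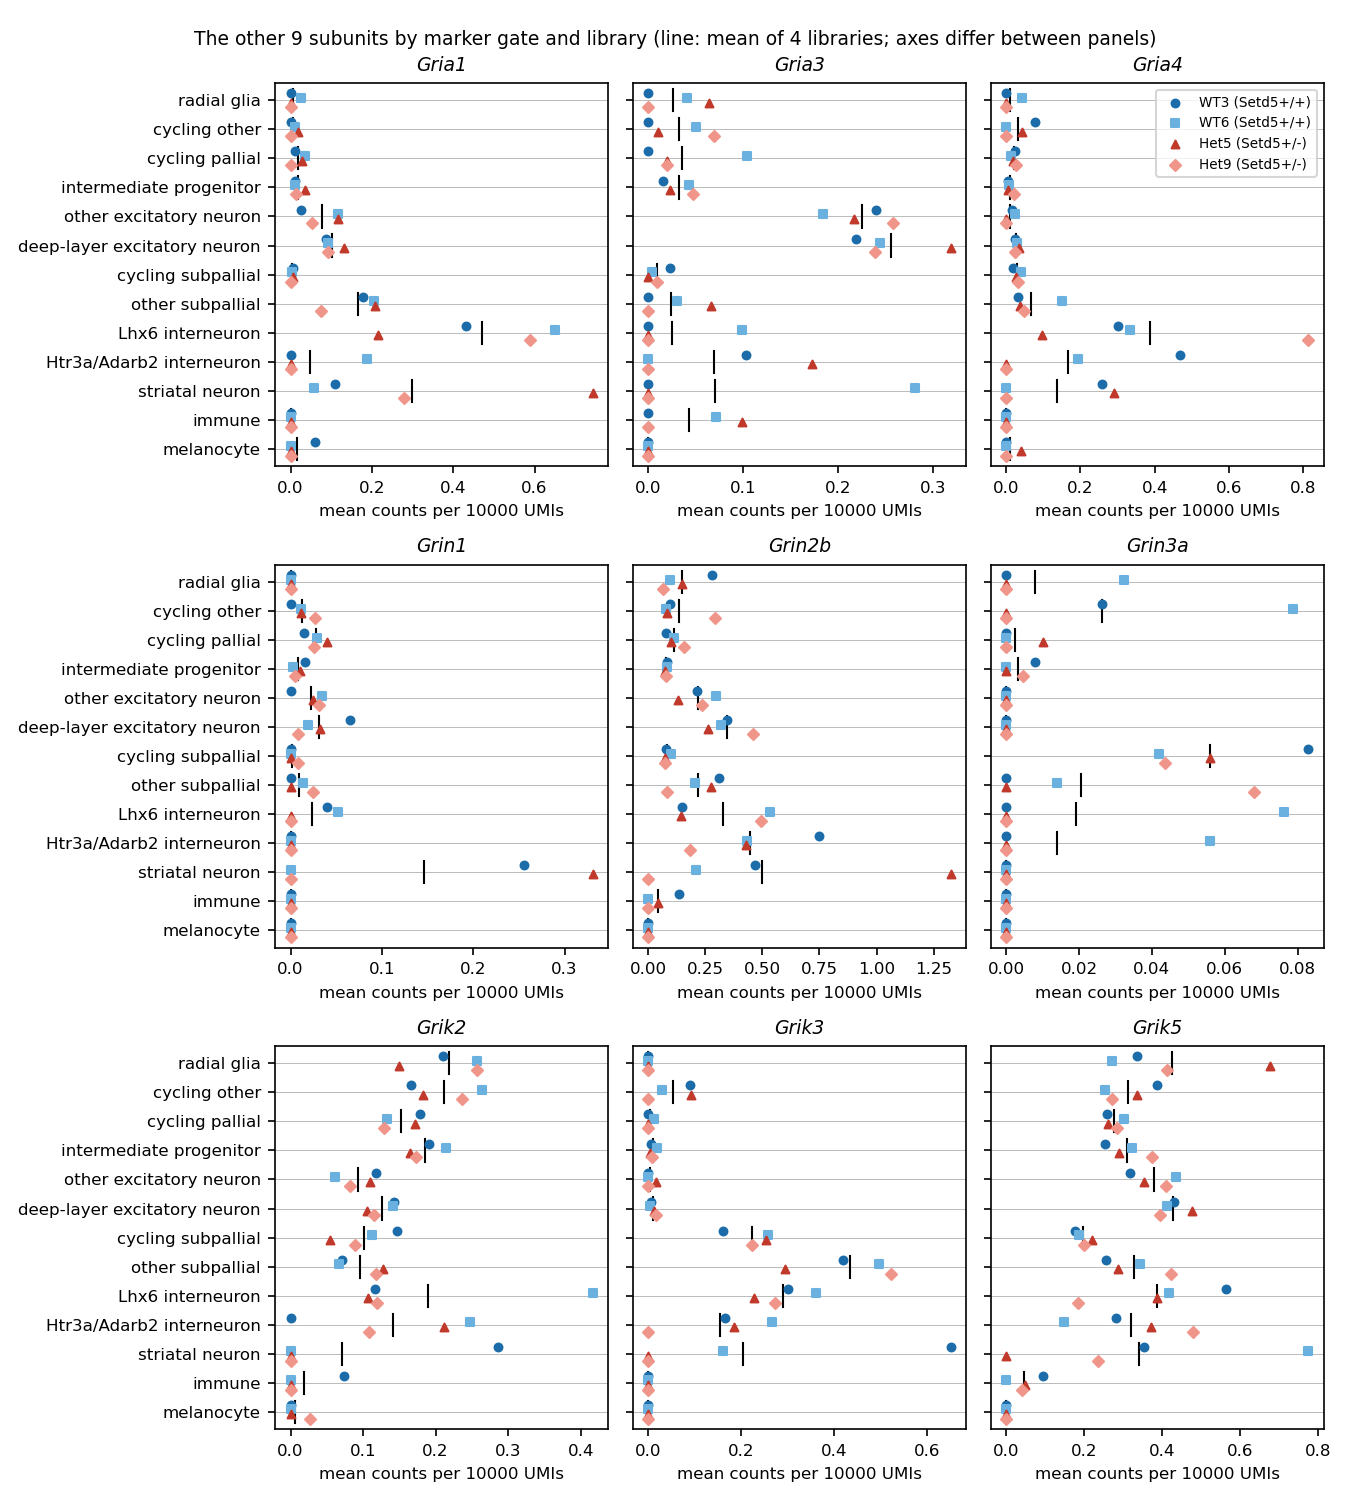
Levels of the other 9 subunits (mean counts per 10000 UMIs, 1 panel and 1 linear scale per subunit) by marker gate. Points are the 4 libraries (blue, *Setd5*+/+; red, *Setd5*+/-) and black lines their means, with *Gria1* and *Gria4* highest in *Lhx6* interneurons, *Gria3* in deep-layer neurons (0.256) and *Grik3* in other subpallial cells (0.434).

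Among the kainate receptor subunits, *Grik3* was a subpallial subunit in these cells. It was at 0.419 in WT3, 0.498 in WT6, 0.295 in Het5 and 0.522 in Het9 in other subpallial cells, and at 0.301, 0.362, 0.227 and 0.274 in *Lhx6* interneurons. Cycling subpallial cells already held 0.161, 0.257, 0.253 and 0.224. The next gate of the fits, cycling cells of neither line, held 0.0891, 0.0301, 0.0919 and 0 in the same order. Striatal neurons (0.203, from 0 to 0.651) and *Htr3a*/*Adarb2* interneurons (0.154, from 0 to 0.266), with 8 and 7 UMIs, overlapped with the cycling subpallial cells. In deep-layer neurons the mean was 0.00935, and radial glia had 0 UMIs in 166 cells, which allows a level of up to 0.0286. Without the filter, *Grik3* differed by -1.83 between deep-layer neurons and *Lhx6* interneurons (adjusted p = 1.75e-11, limma) and by -1.64 between cycling pallial and cycling subpallial cells (adjusted p = 4.89e-10, limma), lower in 4 of 4 libraries in both.

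The *Grik2* level in radial glia was 0.210 in WT3, 0.256 in WT6, 0.149 in Het5 and 0.257 in Het9, and intermediate progenitors held 0.191, 0.214, 0.164 and 0.173. Other excitatory neurons were lower, at 0.118, 0.0619, 0.110 and 0.0821, and did not overlap with the intermediate progenitors, as was the case for 14.9% of genes in that direction. The difference was -0.57 (SE 0.22, adjusted p = 0.0827, limma, lower in 4 of 4 libraries), and it was called with stricter gates (-0.83, adjusted p = 0.0223, limma, 11.6% of all genes called) and with only both gates in the fit (adjusted p = 0.00623, 35.9% of all genes called). *Grik2* averaged 0.126 in deep-layer neurons and 0.101 in cycling subpallial cells. In *Lhx6* interneurons it averaged 0.190, with 0.417 in WT6 and 0.107 to 0.120 in the other libraries. The *Grik5* level was 0.431 in WT3, 0.411 in WT6, 0.476 in Het5 and 0.394 in Het9 in deep-layer neurons, 0.424 on average in radial glia and 0.388 in *Lhx6* interneurons. Cycling subpallial cells were lowest of the neural gates, at 0.177, 0.186, 0.221 and 0.201, below every library of cycling pallial cells, as was true of 16.4% of genes. None of the 6 contrasts was called for *Grik5*, and the difference between cycling pallial and cycling subpallial cells was 0.35 (SE 0.23, adjusted p = 0.426, limma), and -0.11 with Leiden clusters. Melanocyte cells held 0 UMIs of *Grik5*.

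As a result, the kainate family had a different makeup in each line. *Grik3* supplied 52.1% of the kainate UMIs of other subpallial cells in WT3, 50.5% in WT6, 38.5% in Het5 and 46% in Het9, and 1.83% on average in deep-layer neurons. *Grik5* supplied 79.6% in other excitatory neurons, 73.4% in deep-layer neurons and 41.7% in other subpallial cells. *Grik2* supplied 39.4% in radial glia, 37.9% in intermediate progenitors and 11.6% in other subpallial cells. No test was made of these shares.

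The other genes of the pathway were taken from a list of 52 receptors, auxiliary subunits, scaffolds and editing enzymes, of which 48 were in the table and 16 passed the filter. From intermediate progenitors to other excitatory neurons, 5 of the 16 rose and 0 fell (6.11% and 6.03% of all genes tested), with a median of 0.32 against 0.01 over all genes tested. They were *Cacng4* (1.27, adjusted p = 0.000108, limma) and *Cnih2* (1.49, adjusted p = 0.000114), which are auxiliary subunits of AMPA receptors, *Neto2* (0.94, adjusted p = 0.00464), an auxiliary subunit of kainate receptors, and the postsynaptic scaffolds *Shank1* (1.60, adjusted p = 1.12e-06) and *Dlg4* (0.92, adjusted p = 0.00515). Without the filter, 9 of the 48 rose and 4 fell (3.79% and 3.46% of all genes), the latter being *Grin2c* (-0.20), *Gsg1l* (-0.62), *Cacng5* (-0.77) and *Shisa9* (-0.78). From radial glia to intermediate progenitors, *Dlgap4* (1.05) and *Shank1* (0.68) rose, whereas *Cacng4* (-1.20), *Neto2* (-0.80) and *Dlgap1* (-1.13) fell, where 13.4% of all genes rose and 13.9% fell. The level of *Shank1* was only 0.00952 in radial glia and 0.0743 in intermediate progenitors, both under the filter value of 0.1, against 0.438 in other excitatory neurons.

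Deep-layer neurons had more of the scaffolds *Homer2* (1.30) and *Dlg4* (0.84) than *Lhx6* interneurons and less *Grip1* (-1.04) and *Dlgap1* (-2.36), so that 2 of the 16 were higher and 2 lower (10.2% and 5.88% of all genes). *Grip1* binds AMPA receptor tails, and *Dlgap1* links scaffolds of the postsynaptic density. The same 2 genes were higher in *Lhx6* interneurons than in other subpallial cells (*Grip1* 0.87, *Dlgap1* 1.70), and *Homer2* was lower (-1.07), against 2.28% and 5.76% of all genes. Cycling pallial cells had more *Cnih2* (1.60) and *Homer2* (1.11) than cycling subpallial cells, and 0 of the 16 were lower there (8.17% higher and 4.89% lower over all genes). Between deep-layer and other excitatory neurons limma called 0 of the 16, with 1 at an unadjusted p under 0.05. Over all cells, *Grin2a*, the NMDA subunit that rises after birth, had 9 UMIs, *Grin2c* 24 and *Grik1* 11.

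The genes whose means over the 11 gates were most like those of each subunit were listed by Pearson's r over 5637 genes, as a description without a test, and the gates share their libraries. *Gria2* was closest to *Ttc28* (r = 0.984), *Zfp148* (0.982) and *Serp2* (0.975). *Grik3* was closest to *Gad2* (0.978), *Gucy1a3* (0.977) and *Slc32a1* (0.973), and *Gad2* was one of the markers of the subpallial gates. *Gria4* was closest to *Efcab6* (0.987), *Nxph1* (0.985) and *Lgi1* (0.972), and *Gria1* to *Spag9* (0.962), *Cacnb4* (0.945) and *Syt1* (0.931). For *Gria3* the closest were *C77370* (0.954), *Chl1* (0.951) and *Jph4* (0.947), and for *Grin2b* they were *Ly6h* (0.967), *Adgrl3* (0.963) and *Pcsk1n* (0.959). *Grik2* was closest to *Tspan3* (0.962), *Rprd1a* (0.959) and *Ccdc115* (0.953), and *Grik5* to *Fez1* (0.991), *Ncan* (0.988) and *Ankrd46* (0.988). *Grin1* (*Plxna4*, 0.883) and *Grin3a* (*2610318N02Rik*, 0.927) rest on 58 UMIs each.

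The genotypes were then compared over all cells of a library. None of the 4 subunits tested was called (limma, 0 at an unadjusted p under 0.05), and 7 of 8137 genes or 0.086% were called. *Gria2* was at 4.62 in WT3, 3.46 in WT6, 4.14 in Het5 and 4.68 in Het9, with a log2 difference of 0.13 (*Setd5*+/- minus *Setd5*+/+, SE 0.13, adjusted p = 0.994, limma), and the groups overlapped. With 1 library left out that difference ran from -0.068 (without WT6) to 0.34 (without WT3), and the one of *Grin2b* from -0.29 (without Het9) to -0.021 (without Het5). *Grin2b* differed by -0.15 (SE 0.11), *Grik5* by 0.10 (SE 0.08) and *Grik2* by -0.14 (SE 0.09). The libraries of *Grik5* and *Grik2* did not overlap between genotypes, as was the case for 32% of all genes. *Gria3*, which lies on the X chromosome, was at 0.0876 and 0.0883 in WT3 and WT6 and at 0.105 and 0.102 in Het5 and Het9, and the part of sex in this was not tested.

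Within the gates, no pair of a subunit and a gate was called, and few genes were called at all. The 3 pairs with the lowest p were all *Gria2*. In other subpallial cells it was at 1.62 in WT3 and 1.76 in WT6 against 1.19 in Het5 and 0.889 in Het9 (log2 difference -0.66, SE 0.17, adjusted p = 0.448, limma), where 0.0913% of genes were called. In cycling pallial cells it was at 2.33 and 2.68 against 1.92 and 1.68 (-0.45, SE 0.15, adjusted p = 0.599, limma), where 0.151% were called. In cycling subpallial cells it was at 0.839 and 0.713 against 0.623 and 0.362 (-0.60, SE 0.19, adjusted p = 0.986, limma), where 0.0939% were called. In the other gates with a tested subunit, 0.0979% of genes were called in cycling cells of neither line, 0.0397% in *Lhx6* interneurons, 0.0853% in radial glia, 0.104% in intermediate progenitors, 0.103% in deep-layer neurons, 0.077% in other excitatory neurons and 0% in immune cells. *Gria2* was lower in Het5 and Het9 than in WT3 and WT6, without overlap, in these 3 gates, in cycling cells of neither line and in *Lhx6* interneurons, a pattern that 18.1%, 18.9%, 17.1%, 16% and 17.3% of all genes showed in these gates in that order.

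**Figure D4:**
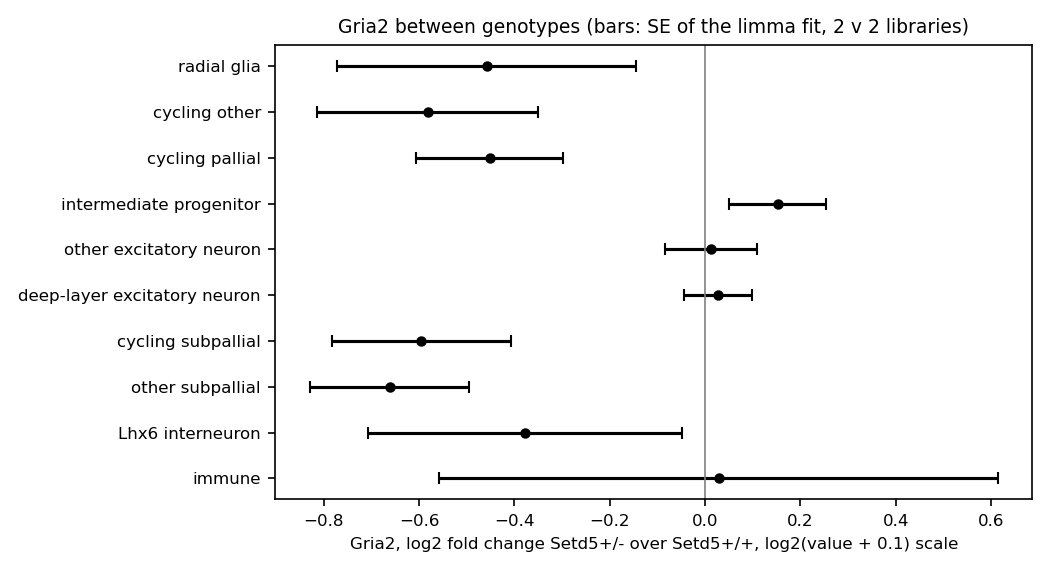
Difference in *Gria2* between genotypes (*Setd5*+/- over *Setd5*+/+, log2 fold change on the log2(level + 0.1) scale) in 10 marker gates, 2 against 2 libraries. Points are limma estimates and bars their SE, and none was called, with -0.66 in other subpallial cells and 0.03 in deep-layer neurons.

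In the excitatory neurons the genotypes overlapped, with differences of 0.03 in deep-layer neurons (SE 0.07, adjusted p = 0.983, limma) and 0.01 in other excitatory neurons (SE 0.10). Without Het5, *Gria2* was called in other subpallial cells (-0.85, adjusted p = 0.0204, limma) and cycling subpallial cells (-0.92, adjusted p = 0.000341, limma), where the lone Het9 was taken to have the spread of the remaining libraries. Leaving out Het9, the differences were -0.47 and -0.27 and were not called. The radial glia markers *Vim*, *Nes* and *Fabp7* were also summed in the gates where *Gria2* was lower in Het5 and Het9 without overlap. In other subpallial cells they were at 5.33 and 5.56 in WT3 and WT6 and at 11.8 and 8.71 in Het5 and Het9. The sums were 7.17 and 7.44 against 9.35 and 9.77 in cycling subpallial cells, and 22.1 and 23.6 against 30.4 and 30.6 in cycling pallial cells. In cycling cells of neither line they were 39.0 and 63.7 against 64.7 and 68.6. In *Lhx6* interneurons the genotypes overlapped, at 5.15 and 2.40 against 4.11 and 3.21. The part of these markers in the *Gria2* values was not tested. The summed globin level did not separate the genotypes, at 7.05 in WT3, 5.96 in WT6, 4.67 in Het5 and 11.8 in Het9 in cycling subpallial cells and 7.06, 6.43, 4.96 and 12.6 in deep-layer neurons. The difference between genotypes was not shown to depend on the gate, since limma called 0 genes in each of the 6 tests of that interaction, with 375 to 436 genes at an unadjusted p under 0.05. For *Gria2* the interaction was 0.41 (SE 0.42, adjusted p = 0.972, limma) between deep-layer neurons and *Lhx6* interneurons.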

How the data were processed

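Single-cell libraries were made by the authors with the 10x 3′ v2 kit and processed, per the submitters' processing notes, using Cell Ranger 2.1, Seurat 2.3.0 and the genome build mm10. Neither annotation nor strand use nor cell filters were found in these sources. The deposited table of 16600 genes and 6562 cells holds the natural log of 1 + counts per 10000 UMIs. Whole UMIs were recovered for 100% of values above 0 (tolerance 0.001). Since deposited values were not raw counts, limma 3.58.1 (R 4.3.3, trend) was used on log2(mean counts per 10000 + 0.1), as planned for that case. Genes with a mean of at least 0.1 were tested, p-values were adjusted by Benjamini-Hochberg over all of them, and the threshold was 0.05. Gates needed 20 cells in every library, so contrasts of *Lhx6* with striatal and *Htr3a*/*Adarb2* neurons could not be fitted. A cell prefix named its library and genotype but no replicate number of the labels. Doublets were not called. Cells with markers of both lines entered no neuronal gate. The marker check of the striatal gate is not reported here. The fits were tested on simulated data. With 2 against 2 libraries an exact permutation test cannot go under 0.33. Floors use 3 counts, and intervals cover counting error only. Named genes were the 10 subunits, called genes of the pathway list, the 3 genes most like each subunit, and subunit and gate pairs called by genotype or otherwise the 3 with the lowest p. Members and lists were chosen with earlier results of these data known. Alternatives covered the pseudocount (0.01 and 1), the filter, summed UMIs, recurring barcodes, stricter gates, Leiden clusters, thinning, the model and each library left out.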

Additional observations from a re-analysis of the deposited data

How the results depend on the processing

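No paired analysis was possible between the genotypes because the cell columns carry no replicate number, while gates were compared within libraries with the library as a block. Of the values compared with an alternative, 116 counts and main values stayed close and 21 moved, and of the values for single subunits 223 kept their call, 9 gained it, 1 lost it and 6 changed sign. Leaving out 1 library gave 7 to 41 genes called by genotype over all cells (13 without WT3, 41 without Het5) and 0 to 2 called pairs of subunit and gate (2 without Het5). Counts of subunits called are given with the number tested and the share of all genes called under the same setting. In fits of only both gates the added subunits passed the filter through the gate where they are high, which favors a call, so these counts are no support. Between deep-layer neurons and *Lhx6* interneurons 1 of 4 was called (16.1%), and 5 of 10 without the filter (10.5%), 2 of 5 without recurring barcodes (24.5%), 2 of 4 with Leiden clusters (14.5%) and 5 of 8 with only both gates in the fit (15%). From intermediate progenitors to other excitatory neurons it was 1 of 4 (12.1%), and 2 of 10 without the filter (7.26%), 2 of 5 without recurring barcodes (19%), 2 of 4 with stricter gates (11.6%) and 4 of 5 with only both gates (35.9%). From radial glia to intermediate progenitors it was 1 of 4 (27.4%), and 2 of 4 with Leiden clusters (29.9%). Between *Lhx6* interneurons and other subpallial cells it was 0 of 4 (8.05%, limma, 1 at an unadjusted p under 0.05), and 2 of 10 without the filter (4.82%), 2 of 4 with Leiden clusters (10.3%) and 2 of 7 with only both gates (5.49%). Between cycling gates it was 1 of 4 (13.1%), and 3 of 10 without the filter (7.58%), 2 of 5 without recurring barcodes (19.3%), 0 of 4 with Leiden clusters (10.5%) and 2 of 4 with only both gates (29.7%). With 1 library left out, the *Gria2* difference ran from -0.068 (without WT6) to 0.34 by genotype over all cells, and from -0.10 to 0.0051 (without WT6) between deep-layer and other excitatory neurons. The *Grin2b* difference ran from -0.034 (without WT3) to 0.45 between deep-layer neurons and *Lhx6* interneurons and from -0.098 (without Het9) to 0.72 between *Lhx6* interneurons and other subpallial cells, where it was -0.83 with Leiden clusters. The *Grik5* difference between cycling gates was -0.11 with Leiden clusters. Thinning gave a *Gria2* share of AMPA UMIs of 95.5% in deep-layer neurons (96.1% before), and 95.3% of these cells had a *Gria2* UMI without thinning (85.6% with it). Causes were not tested. Thinned contrasts with *Lhx6* interneurons could not be fitted, since fewer than 20 cells of Het9 were left. Depth limits *Grin1* and *Grin3a* most, with 58 UMIs each.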
